A study of Mus musculus with 10 samples.

Results

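The 10 genes described here encode the 5 subunits of the transcription factor NF-kB (Rela, Rel, Relb, Nfkb1 and Nfkb2) and 5 regulators that hold it back or modify it (Nfkbia, Nfkbie, Tnfaip3, Nfkbiz and Bcl3). They were chosen by name from the 55291 genes of the count table, and all 10 were among the 20068 genes with enough reads to be tested. The transcripts were counted in regulatory T (Treg) cells sorted from Foxp3YFP-cre mice, in which the Foxp3 locus drives a fluorescent reporter and the Cre recombinase. All 3 groups carried this allele. The LN group (4 libraries) came from lymph nodes of mice without a tumour, the Hepa1-6 group (4 libraries) from subcutaneous tumours of a mouse hepatoma line on day 23, and the E.G7 group (2 libraries) from subcutaneous tumours of an ovalbumin-expressing mouse T lymphoma line on day 21. Tumour lymphocytes were isolated first and Treg cells were then sorted from their CD4+ T cells. The labels do not say whether replicates came from separate mice, and each p-value therefore reflects only how far these libraries spread, perhaps for technical reasons. The study asked whether tumour Treg cells resembled T helper subsets, and used LN Treg cells as the control.

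NF-kB works as pairs of subunits. In resting cells the pairs built on RelA and c-Rel are held in the cytoplasm by inhibitors of the IkB family, until the IKK kinase complex marks the inhibitor for destruction, and several inhibitor genes are themselves switched on by NF-kB, which closes a feedback loop. In the alternative branch, the kinase NIK drives the processing of the Nfkb2 product, which partners RelB. In Treg cells, c-Rel and RelA downstream of the antigen receptor, CD28 and TNF family receptors are known to be needed for Treg development and for the activated Treg state.

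The start regions of several of these genes carry the NF-kB recognition motif. These sites are shown because they include those of Tnfaip3 and Nfkbia, which differed most from LN. RefSeq promoters (GRCm38.p6, the same assembly as mm10) were matched for 7 of the 10 genes, in 10 windows of the 250 bases before a transcription start. The 10-base kappaB consensus, searched on both strands, was found for 5 of these 7 genes (Tnfaip3, Rel, Nfkbia, Nfkbie and Nfkb2). It was found in 7.25% of all 32851 windows of that length, and 8.23% of the 27025 genes in the table had it in at least 1 window. Neither Rela nor Bcl3 had the motif in its window, and Bcl3 was the gene that differed most between the tumours. No promoter was matched for Nfkb1, Relb and Nfkbiz. Whether the motif goes with the size of a change was not tested. Matched bases are in capitals, 5′ to 3′ on the strand of the gene. The sites of Rel and Nfkb2 each hold 2 overlapping matches, offset by 1 base.
Nfkbia, chr12:55492648-55492897, minus strand, the whole window, with the match 29 to 20 bases before the start: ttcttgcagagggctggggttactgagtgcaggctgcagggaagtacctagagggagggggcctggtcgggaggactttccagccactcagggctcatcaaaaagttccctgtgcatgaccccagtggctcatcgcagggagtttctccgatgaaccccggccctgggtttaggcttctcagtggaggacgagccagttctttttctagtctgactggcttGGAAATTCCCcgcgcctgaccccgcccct
Tnfaip3, chr10:19015411-19015432, minus strand, match 12 to 3 bases before the start: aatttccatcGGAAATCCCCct
Tnfaip3, chr10:19015516-19015545, minus strand, match 125 to 116 bases before the start: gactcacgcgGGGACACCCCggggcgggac
Rel, chr11:23771042-23771070, minus strand, matches 92 to 82 bases before the start: gtaagcagcGGGAAATCCCCccccctccc
Nfkbie, chr17:45555584-45555613, plus strand, match 106 to 97 bases before the start: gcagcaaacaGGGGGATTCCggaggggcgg
Nfkb2, chr19:46304689-46304717, plus strand, matches 39 to 29 bases before the start: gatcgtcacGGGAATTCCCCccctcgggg
A match is a description of these letters and does not show that NF-kB bound there. The other matches in the table were 1 more in the same Nfkb2 window and 1 in the window of each of its other 2 starts.

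The libraries held 22665563 to 26665325 counted reads each. T and Treg cell genes were present in every group: summed over 9 defining genes, TMM-scaled CPM (reads of a gene relative to the library's total) ranged over LN libraries from 5273 to 5544, over Hepa1-6 from 5844 to 5955 and over E.G7 from 5116 to 5297. Of these 9 genes, 1 was called higher and 5 lower in Hepa1-6 than in LN (median log2 -0.24), and 1 higher and 6 lower in E.G7 (median -0.20). Foxp3 itself had a mean of 109 ± 10.8 CPM for LN (SD, n = 4), 82.0 ± 11 for Hepa1-6 (SD, n = 4) and 50.2 ± 4.34 for E.G7 (SD, n = 2), and was called lower in both tumour groups. Most marker lists of other cells were higher in the tumour libraries. The 14 macrophage and neutrophil markers summed to 25.3 to 37.4 CPM over LN libraries, 3978 to 4295 over Hepa1-6 and 748 to 779 over E.G7. All 14 were called higher in both tumour groups, and S100a9 was at 0 in every LN library. The 10 dendritic cell and MHC class II markers summed to 149 to 171, 9484 to 9861 and 1698 to 1763 CPM, with all 10 higher in both tumour groups and Batf3 at 0 in every LN library. The 10 CD8 T cell and NK cell markers summed to 29.8 to 34.4 CPM over LN, 516 to 556 over Hepa1-6 and 145 to 146 over E.G7, with 9 and 8 of them higher than in LN. The 10 stromal and endothelial markers summed to 223 to 240, 1116 to 1207 and 137 to 165 CPM, so that the E.G7 sum was below LN although 9 of the 10 genes were called higher in each tumour group. B cell markers (8 genes) had lower sums in tumours, 827 to 936, 371 to 443 and 623 to 632 CPM, with 4 genes higher and 2 lower in each tumour group. Hepatoma markers (9 genes, 7 tested) summed to 29.7 to 36.6 CPM over LN, 3366 to 3480 over Hepa1-6 and 237 to 257 over E.G7, with 7 higher in Hepa1-6 and 5 higher and 1 lower in E.G7. The albumin gene Alb was at 370 CPM in Hepa1-6 and 0.0554 in E.G7. Immature thymocyte markers (5 genes, 2 tested) summed to 17.6 to 20, 64.2 to 75.4 and 72.6 to 75.0 CPM, of which Dntt held 46.6 in E.G7, 2.84 in Hepa1-6 and 2.30 in LN. Immediate early genes that tissue dissociation can induce (12 genes) summed to 5040 to 5433 CPM over LN, 12831 to 13400 over Hepa1-6 and 7590 to 7862 over E.G7, with 10 higher and 1 lower in Hepa1-6 than in LN and 8 higher and 4 lower in E.G7. Macrophages, dendritic cells and tumour cells transcribe NF-kB genes as well, and the part these moving markers have in the results below was not tested. In such bulk libraries, a change in the number of cells of a type and a change in RNA per cell cannot be told apart.

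In Treg cells of tumour-free lymph nodes the inhibitor gene Nfkbia was the most abundant of the 10, and the order of the others was nearly free of overlap between libraries. On a per-length scale (RPKM, CPM per kilobase of merged exons), Nfkbia stood at 329 ± 9.72 (SD, n = 4), followed by Rela at 70.7 ± 0.972. Tnfaip3 (58.5 ± 2.51), Nfkbiz (46.9 ± 1.98), Nfkb2 (32.1 ± 1.47) and Nfkbie (28.0 ± 1.13) followed, each below the last without overlap. Relb (23.5 ± 1.28) and Rel (19.7 ± 1.63) overlapped each other, and Nfkb1 (12 ± 0.999) and Bcl3 (6.50 ± 1.37) were lowest. Merged exon lengths include every annotated isoform (12061 bases for Nfkb1 against 1610 for Nfkbia), so a gene with many isoforms has a low RPKM for its transcript number. Among the tumour libraries the order changed at the top: Tnfaip3 took the second place and Nfkbiz the third in both tumour groups, with Nfkbiz and Rela overlapping in E.G7.

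**Figure D1:**
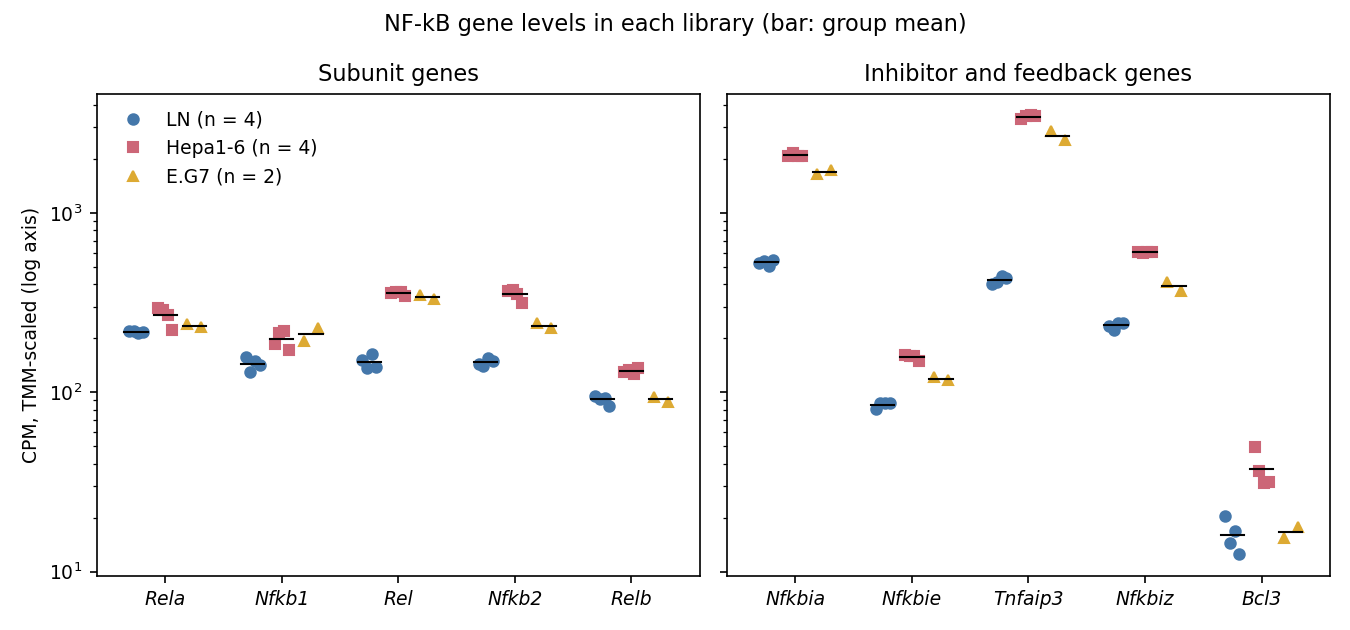
Level of each gene in every library as TMM-scaled CPM on a log axis, subunit genes on the left and inhibitor and feedback genes on the right; symbols are single libraries of LN (n = 4), Hepa1-6 (n = 4) and E.G7 (n = 2), and black bars are group means. Tnfaip3 and Nfkbia stand furthest above LN in both tumour groups, while Bcl3 and Relb are above LN in Hepa1-6 but inside the LN range in E.G7.

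All 10 genes were higher in Hepa1-6 than in LN libraries, and 6 of them by at least 2-fold. The background is high in this comparison: 37% of all tested genes were called higher and 31.1% lower. By at least 2-fold, 23.5% of all tested genes were called higher. With so many genes called, the sizes of the changes tell more than the count. The median log2 fold change was 1.23 over the 10 genes, 1.35 over the 5 regulators and 0.53 over the 5 subunits, beside 0.04 over all tested genes. A gene was called where edgeR's quasi-likelihood test, adjusted over all genes, gave a p under 0.05. In E.G7 libraries 7 of the 10 were called higher than in LN and 3 were not called, where 32.7% of all genes were called higher and 27.2% lower. The medians were 0.61 over the 10 genes, 0.72 over the regulators, 0.55 over the subunits and 0.01 over all tested genes. Of all calls, 54.3% in Hepa1-6 and 54.6% in E.G7 were higher, a split that became 63.8% and 68.9% with scaling to T cell genes and 45.0% and 48.3% with upper-quartile scaling. Both comparisons use the same 4 LN libraries.

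**Figure D2:**
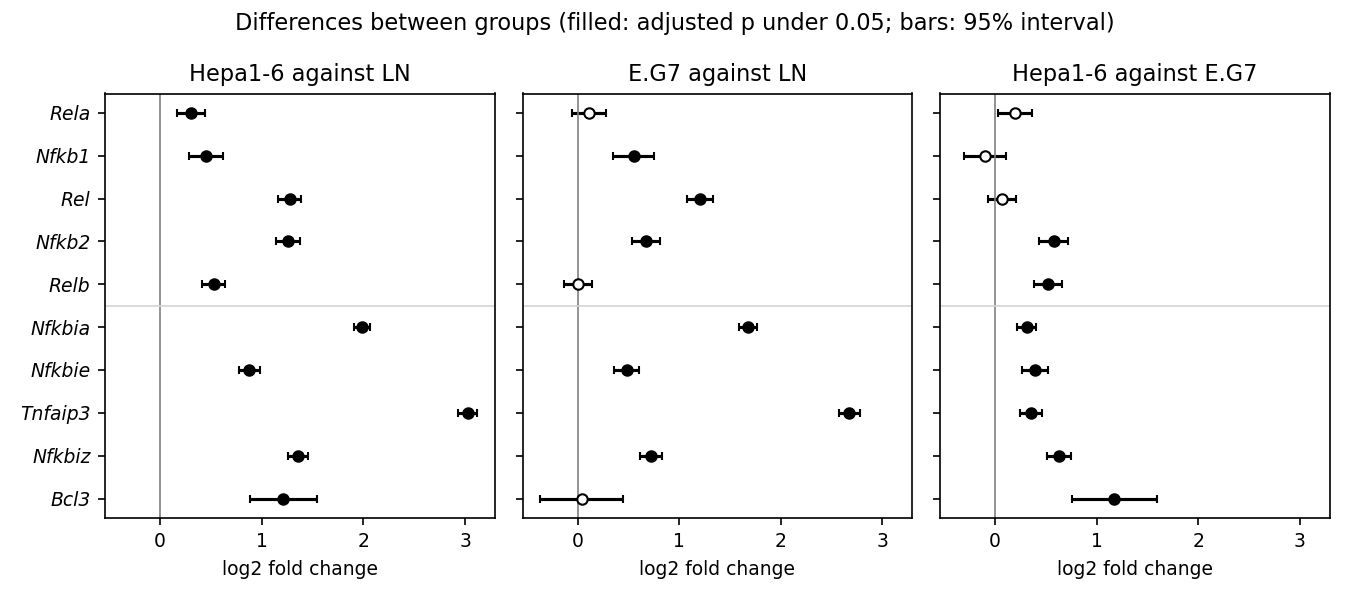
Log2 fold change of each gene in the 3 comparisons, with bars for the normal 95% interval from the model's standard error; filled symbols passed an adjusted p of 0.05 over all genes. All 10 genes are filled for Hepa1-6 against LN and 7 for E.G7 against LN. In both, Tnfaip3 and Nfkbia below the grey line lie further right than every subunit above it, while Nfkbie and Bcl3 lie left of Rel.

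Tnfaip3 differed most. It encodes A20, an enzyme that edits ubiquitin chains on signalling adaptors and so shuts off the route from TNF and antigen receptors to IKK. The gene lies on chromosome 10, 19000910 to 19015657 (mm10, minus strand). Its 4 LN libraries held 403, 413, 443 and 433 CPM, its 4 Hepa1-6 libraries 3349, 3448, 3490 and 3473 CPM, and its 2 E.G7 libraries 2855 and 2533 CPM. Every tumour library was thus above every LN library, and every Hepa1-6 library above both E.G7 libraries. Such separation was common: of all tested genes, 34.1% lay above LN without overlap in Hepa1-6 and 27.6% below, and 36.6% and 32.6% in E.G7. Between tumours, 31.9% lay above E.G7 without overlap in Hepa1-6 and 26.2% below. Tnfaip3 rose 8.14-fold in Hepa1-6 (log2 3.02, SE 0.0485, edgeR adjusted p = 3.78e-17) and 6.37-fold in E.G7 (log2 2.67, SE 0.0531, edgeR adjusted p = 2.87e-15). Of all genes tested, 12.6% had a larger log2 fold change than Tnfaip3 in Hepa1-6 and 9.52% in E.G7, among them genes absent from LN. The macrophage and neutrophil sum was 3978 to 4295 for Hepa1-6 and 748 to 779 CPM in E.G7, and its part in these values was not tested.

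Nfkbia encodes IkB alpha, the main inhibitor that masks RelA and c-Rel, and is a classical NF-kB target. Its gene lies on chromosome 12, 55489410 to 55492647 (minus strand), directly below the window printed above. LN libraries held 529, 539, 508 and 542 CPM, Hepa1-6 libraries 2080, 2143, 2076 and 2075 CPM, and E.G7 libraries 1649 and 1726 CPM. The 3 groups did not overlap. Nfkbia rose 3.96-fold in Hepa1-6 (log2 1.98, SE 0.0396, edgeR adjusted p = 4.55e-16) and 3.19-fold in E.G7 (log2 1.67, SE 0.0450, edgeR adjusted p = 7.18e-14). Nfkbie encodes IkB epsilon, a related inhibitor that holds mainly RelA and c-Rel and is degraded more slowly (chromosome 17, 45555703 to 45563169). It went from 80.2, 87.5, 86.8 and 86.7 CPM for LN to 160, 158, 160 and 148 for Hepa1-6 and 122 and 117 CPM in E.G7, again without overlap. It rose 1.84-fold in Hepa1-6 (edgeR adjusted p = 4.54e-10) and 1.40-fold in E.G7 (edgeR adjusted p = 7.83e-06).

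Nfkbiz and Bcl3 encode nuclear members of the IkB family, IkB zeta and BCL-3, which bind the p50 and p52 subunits on DNA and can raise or lower transcription there. Nfkbiz (chromosome 16, 55811375 to 55838899) stood at 233, 223, 244 and 243 CPM for LN, 603, 598, 602 and 607 for Hepa1-6, and 411 and 367 CPM in E.G7. The groups did not overlap, and the Hepa1-6 libraries lay within a few percent of each other (coefficient of variation 0.630%). Nfkbiz rose 2.56-fold in Hepa1-6 (edgeR adjusted p = 6.28e-13) and 1.65-fold in E.G7 (edgeR adjusted p = 2.29e-08). Bcl3 was the rarest of the 10 (chromosome 7, 19808462 to 19822770). It held 20.4, 14.4, 17.0 and 12.6 CPM for LN, 49.8, 36.5, 31.3 and 31.5 for Hepa1-6, and 15.4 and 17.7 CPM in E.G7. The Hepa1-6 libraries were all above the others, and the E.G7 libraries lay inside the LN range. Bcl3 rose 2.32-fold in Hepa1-6 (log2 1.21, SE 0.168, edgeR adjusted p = 1.90e-05). In E.G7 it did not pass (log2 0.04, 95% interval -0.37 to 0.45, edgeR adjusted p = 0.892).

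Among the subunits, Rel and Nfkb2 changed most. Rel encodes c-Rel, the subunit most tied to lymphocytes (chromosome 11, 23736847 to 23770970). It stood at 151, 136, 163 and 139 CPM for LN, 356, 361, 363 and 345 for Hepa1-6, and 349 and 331 CPM in E.G7. Tumour and LN libraries did not overlap, while the tumour groups overlapped each other. Rel rose 2.42-fold in Hepa1-6 (log2 1.27, SE 0.0572, edgeR adjusted p = 1.07e-11) and 2.31-fold in E.G7 (log2 1.20, SE 0.0668, edgeR adjusted p = 3.25e-10). Nfkb2, which encodes the p100 precursor of p52 (chromosome 19, 46304320 to 46312385), held 143, 141, 156 and 149 CPM for LN, 365, 372, 354 and 314 for Hepa1-6, and 243 and 227 CPM in E.G7. These 3 groups were separate, with E.G7 between the others. Nfkb2 rose 2.39-fold in Hepa1-6 (edgeR adjusted p = 1.88e-11) and 1.60-fold in E.G7 (edgeR adjusted p = 5.12e-07). Its exons share 531 bases with 4833438C02Rik and 299 bases with Psd on the opposite strand, out of 4584. No source used here gives the strand setting of the count, so some reads could belong to either gene, though these 2 genes reached at most 26.7 and 49.9 CPM in any library.

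Relb, the partner of p52 in the alternative branch, passed the threshold in Hepa1-6 and not in E.G7. It went from 95.5, 91.7, 93.3 and 84.1 CPM for LN to 129, 132, 127 and 137 CPM in Hepa1-6 (1.44-fold, edgeR adjusted p = 5.97e-07). In E.G7 it held 94.3 and 88.2 CPM, inside the LN range (log2 0.00, 95% interval -0.13 to 0.14, edgeR adjusted p = 0.997). The tumour groups differed directly for Relb, as given below. With scaling to T cell genes, E.G7 passed as well (log2 0.27, edgeR adjusted p = 0.00783), but the median over all tested genes was then 0.29. Of the 12 genes used for that scaling, 8 were called lower and 0 higher in E.G7 than in LN with the main scaling. The Relb gene lies on chromosome 7, 19606217 to 19629438. Relb and Bcl3 were alike in that Hepa1-6 libraries lay above LN and E.G7 libraries inside the LN range.

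Nfkb1 and Rela, the genes of p105/p50 and RelA that make up the classical pair, changed least in Hepa1-6. Nfkb1 (chromosome 3, 135584655 to 135691547) stood at 157, 129, 150 and 141 CPM for LN, 186, 213, 220 and 171 for Hepa1-6, and 194 and 229 CPM in E.G7. It rose 1.37-fold in Hepa1-6 (edgeR adjusted p = 0.000271) and 1.47-fold in E.G7 (edgeR adjusted p = 0.000292). Rela (chromosome 19, 5637483 to 5648130) held 220, 218, 213 and 217 CPM in LN. It held 293, 286, 271 and 223 for Hepa1-6 and 239 and 231 CPM in E.G7, and Hepa1-6 replicate 4 lay just above the highest LN library. Rela rose 1.24-fold in Hepa1-6 (log2 0.30, SE 0.0692, edgeR adjusted p = 0.00108), a call that ended with upper-quartile scaling (log2 0.12, edgeR adjusted p = 0.112). In E.G7 it did not pass (log2 0.11, 95% interval -0.05 to 0.28, edgeR adjusted p = 0.275), although it did with scaling to T cell genes (log2 0.38, edgeR adjusted p = 0.0011). The median over all tested genes with that scaling was 0.29.

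Set directly against each other, Hepa1-6 libraries exceeded E.G7 libraries for 7 of the 10 genes, including all 5 regulators. The other 3 were not called. Over all genes 26.1% were called higher in Hepa1-6 and 19.6% lower. Bcl3 differed most, 2.25-fold (edgeR adjusted p = 0.000416). Nfkbiz was 1.55-fold higher (edgeR adjusted p = 3.27e-07), Nfkb2 1.49-fold (edgeR adjusted p = 6.81e-06) and Relb 1.44-fold (edgeR adjusted p = 1.56e-05). Tnfaip3 was 1.28-fold higher in Hepa1-6 (edgeR adjusted p = 7.38e-05), Nfkbia 1.24-fold (4.97e-05) and Nfkbie 1.32-fold (0.00011). Rel (log2 0.07, 95% interval -0.07 to 0.20, edgeR adjusted p = 0.456) and Nfkb1 (log2 -0.10, 95% interval -0.30 to 0.10, edgeR adjusted p = 0.473) did not pass. Rela did not pass either (log2 0.19, edgeR adjusted p = 0.0765), but it did without Hepa1-6 replicate 4 (log2 0.27, edgeR adjusted p = 0.00123). All 14 macrophage and neutrophil markers (median log2 3.22) and all 12 immediate early genes (median 0.95) were also higher in Hepa1-6 than in E.G7, and all-gene calls leaned the same way.

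Within each library the mix of subunit transcripts differed between LN and tumour, a measure that library scaling cannot move. Rela made up 42.9% to 46.0% of the summed RPKM of the 5 subunit genes in LN, 30.7% to 35.2% in Hepa1-6 and 35.6% to 35.7% in E.G7. Rel made up 11.8% to 13.5% in LN, 17.6% to 19.5% in Hepa1-6 and 21.0% to 21.5% in E.G7, and these ranges did not overlap. Nfkb2 took 19.4% to 21.0% in LN, 29.0% to 29.6% in Hepa1-6 and 23.5% to 24.3% in E.G7. The 2 subunits with the larger fold changes thus held a larger share in tumour libraries, c-Rel most in E.G7 and p100 most in Hepa1-6. Relb took 13.9% to 15.3% in LN, 12.2% to 14.8% in Hepa1-6 and 10.8% to 11.2% in E.G7. Nfkb1 took 6.92% to 8.09% in LN, 5.68% to 6.88% in Hepa1-6 and 7.40% to 9.02% in E.G7. In total the subunits summed to 154 to 162 RPKM in LN, 237 to 274 RPKM in Hepa1-6 and 211 to 218 RPKM in E.G7. These shares are descriptions of transcripts, given without a test, and a share falls when others rise: the Rela level itself did not fall.

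The summed transcripts of the inhibitor genes Nfkbia and Nfkbie were higher relative to the subunit transcripts in libraries of both tumours. Most of this sum was Nfkbia, at a mean of 329 RPKM in LN, 1300 in Hepa1-6 and 1048 in E.G7. The summed RPKM of Nfkbia and Nfkbie was 2.13 to 2.35 times that of the 5 subunits in LN libraries. It was 4.96 to 5.65 times in Hepa1-6 and 4.89 and 5.27 times in E.G7. Every tumour library lay above every LN library, and the tumour groups overlapped. On the log2 scale Hepa1-6 exceeded LN by 1.20 (exact two-sided permutation test over libraries, p = 0.0286, the smallest that 4 against 4 libraries allow, adjusted p = 0.0857 over the 3 comparisons). E.G7 exceeded LN by 1.17 (exact permutation p = 0.0667, again the smallest possible here, adjusted p = 0.1), so neither could pass after adjustment. Hepa1-6 and E.G7 differed by 0.03 (exact permutation p = 0.8). With Nfkbia alone in the ratio, the log2 differences from LN were 1.26 in Hepa1-6 and 1.23 in E.G7. The mean of Nfkbie went from 28.0 RPKM in LN to 51.5 in Hepa1-6 and 39.1 in E.G7. The mean subunit sum went from 158 RPKM in LN to 262 in Hepa1-6 and 214 in E.G7. Nfkbie alone against the subunits was not tested. Tnfaip3 shifted further against Rela, from 0.777 to 0.882 in LN to 4.86 to 6.62 in Hepa1-6 and 4.67 to 5.09 in E.G7 (ratio of RPKM).

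**Figure D3:**
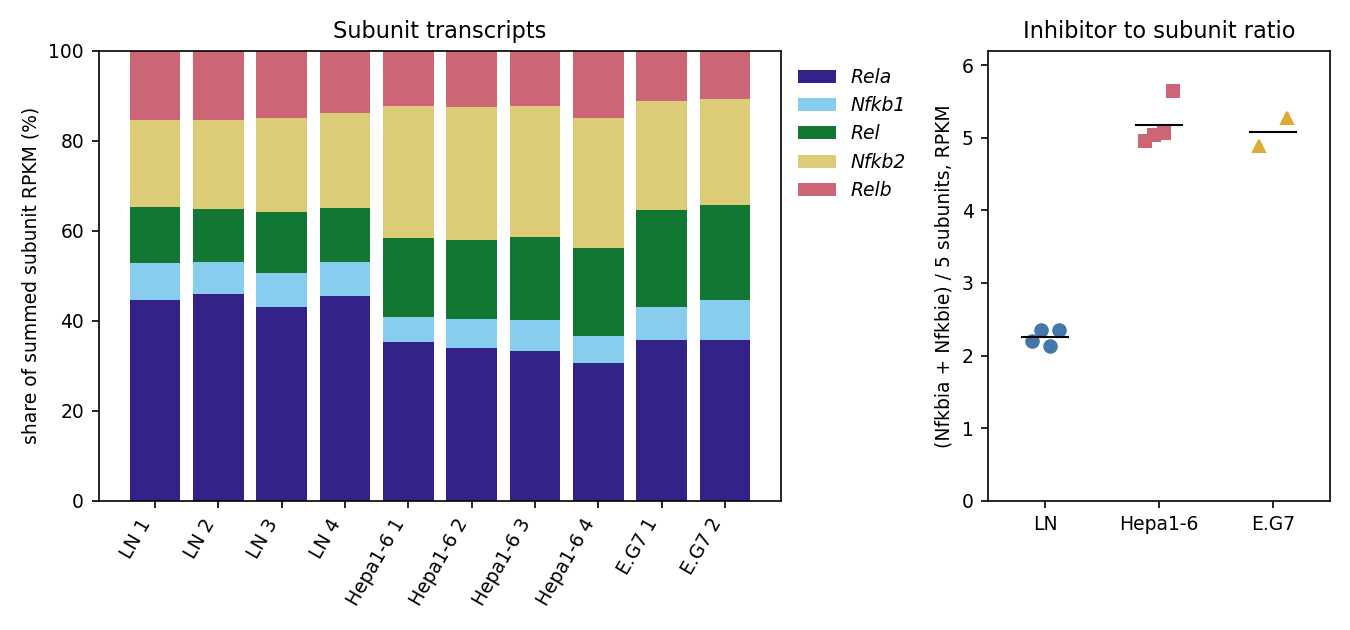
Left, share of each subunit gene in the summed RPKM of the 5 subunit genes in each library (percent, stacked bars); right, summed RPKM of Nfkbia and Nfkbie divided by that of the 5 subunit genes, with symbols for libraries and bars for group means. The Rela share is at least 42.9% in every LN library and at most 35.7% in every tumour library, and the ratio on the right is at least 4.89 in every tumour library and at most 2.35 in every LN library.

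The wider pathway did not move as one block. Of 93 other genes in 7 lists, from ligands to targets, 51 were higher and 27 lower in Hepa1-6 than in LN, and 41 higher and 38 lower in E.G7. The counts in these lists stand against the shares of all genes called, 37% higher and 31.1% lower in Hepa1-6 and 32.7% higher and 27.2% lower in E.G7. Among 17 receptors and their adaptors, 13 rose and 3 fell in Hepa1-6 (median log2 1.37) and 9 rose and 6 fell in E.G7 (median 0.49). Tnfrsf9, the gene of the co-stimulator 4-1BB, went from 205 ± 16.5 CPM for LN to 1555 ± 10.2 CPM in Hepa1-6 (SD, n = 4 each) and 831 ± 4.55 CPM in E.G7 (SD, n = 2), rises of 7.57-fold and 4.05-fold. Tnfrsf25, the gene of death receptor 3, fell by 2.14 on the log2 scale in both. Ltbr, the lymphotoxin beta receptor gene of stromal and myeloid cells, was at 0.109 CPM for LN, 47.4 in Hepa1-6 and 2.5 in E.G7.

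Ligand genes went both ways, with 7 of 13 higher and 5 lower in Hepa1-6 (median log2 0.48) and 5 higher and 7 lower in E.G7 (median -0.37). Il1b, the interleukin 1 beta gene, which is best known from myeloid cells, stood at 0.0390 CPM for LN, 142 in Hepa1-6 and 17.5 in E.G7. Lta, the lymphotoxin alpha gene of lymphocytes, fell by 2.45 on the log2 scale in Hepa1-6 and by 2.41 in E.G7. Tnfsf8, the gene of the CD30 ligand, fell by 1.91 and 0.80.

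The signalling genes between receptor and NF-kB had medians near or below 0. Of 10 genes of the IKK complex, its activators and IKK-related kinases, 1 rose and 4 fell in Hepa1-6 (median log2 -0.12) and 1 rose and 5 fell in E.G7 (median -0.24). Ikbke, an IKK-related kinase, fell by 1.26 and 1.37 on the log2 scale, and Ikbkb, the kinase that phosphorylates IkB proteins, by 0.77 and 1.05. In the arm from the T cell receptor and CD28 (8 genes), 3 rose and 4 fell in each comparison with LN, where for Hepa1-6 the share that rose is near that of all genes. Prkcq, the gene of the kinase PKC theta, which acts downstream of the receptor, fell by 2.01 in Hepa1-6 and 1.84 in E.G7. Lck, the gene of the first kinase of that receptor, fell by 0.69 and 0.66. Malt1, the gene of a protease on the route to IKK, rose instead, 2.79-fold in Hepa1-6 and 1.5-fold in E.G7. Of 12 TRAF and ubiquitin genes, 5 rose and 4 fell in Hepa1-6 (median -0.03) and 1 rose and 7 fell in E.G7 (median -0.24). Traf5 fell by 1.02 and 1.23, and Rbck1, a part of the linear ubiquitin ligase, by 0.42 and 0.51. All of these passed edgeR's adjusted p of 0.05.

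Of 15 negative regulators outside the 10 genes, 9 were higher and 3 lower in Hepa1-6 (median log2 0.49) and 10 higher and 4 lower in E.G7 (median 0.65). Nfkbid, the gene of the nuclear protein IkB NS, rose 3.14-fold in Hepa1-6 and 1.72-fold in E.G7. Nfkbib, the gene of IkB beta, rose 2.34-fold and 1.95-fold, and Tnip3, the gene of a partner of A20, 12.5-fold and 2.83-fold. Of 18 genes listed as NF-kB targets, 13 rose and 4 fell in Hepa1-6 (median 1.06), and 12 rose and 5 fell in E.G7 (median 0.55). The genes named next are those of smallest adjusted p in Hepa1-6 against LN, and all of them rose. Which cells carried these transcripts was not tested. Gadd45b, a stress response gene, went from 36.3 ± 1.53 CPM to 469 ± 22.8 CPM in Hepa1-6 (SD, n = 4 each) and 281 ± 17.5 CPM in E.G7 (SD, n = 2). Icam1, an adhesion molecule gene, rose 3.64-fold and 2.03-fold, and Ier3, an immediate early gene, 255-fold and 19.5-fold from 0.704 CPM in LN.

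**Figure D4:**
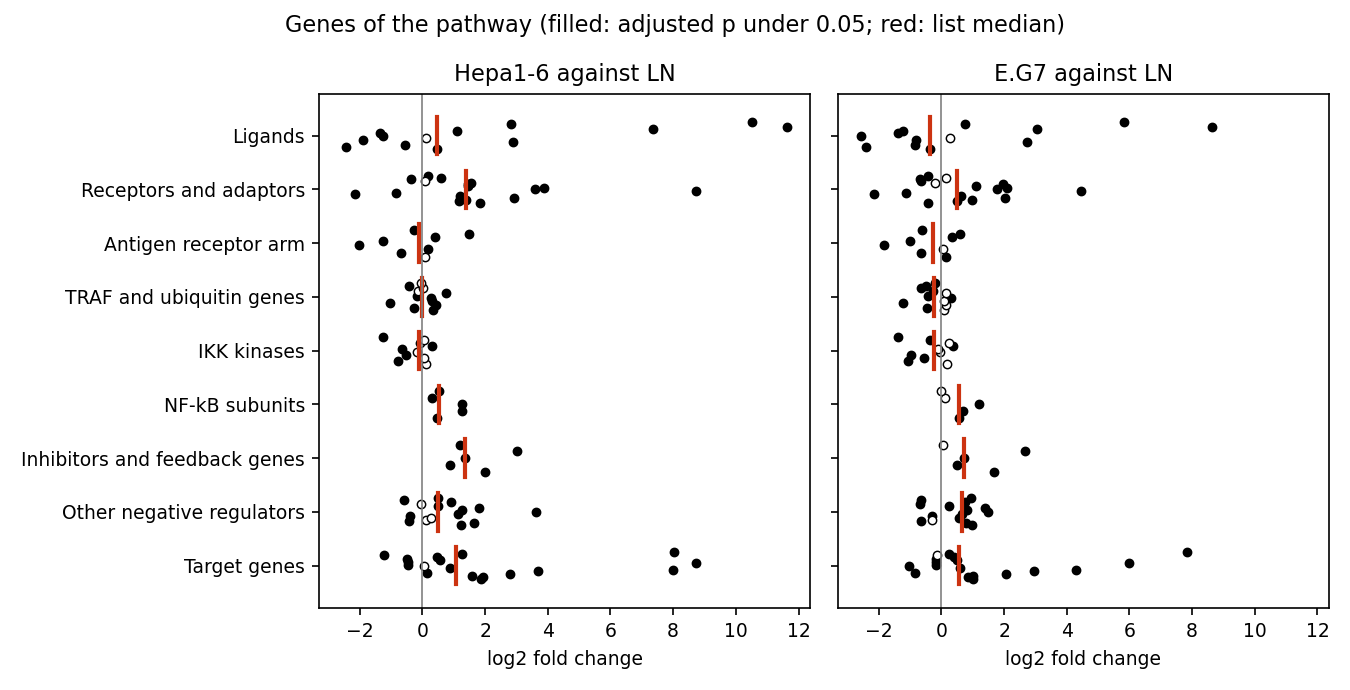
Log2 fold change of each tested gene in the 7 pathway lists and in the 2 classes of the 10 genes, for Hepa1-6 and E.G7 against LN; filled symbols passed an adjusted p of 0.05 and red bars are list medians. Kinase, TRAF and antigen receptor genes centre near 0, while receptors, inhibitors and targets lie to the right; fitted values of genes with few or no reads in LN, such as Il33, depend on the model's prior count.

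For each of the 10, the 2 genes whose levels correlated with it most strongly across the 10 libraries were taken. Likeness was Pearson's r of log2 CPM among 8979 genes at a mean of at least 10 CPM, a measure set mostly by the 3 group means. It does not depend on the size of a change. In Hepa1-6 against LN, Sema6a rose by 12.5 on the log2 scale beside 3.02 for Tnfaip3, and Fcgr2b by 11.7 beside 1.27 for Rel. C1qc rose by 7.92 beside 0.88 for Nfkbie. Others were nearer in size, such as Nr4a1 (2.69) to Tnfaip3. Tnfaip3 was followed by Sema6a and Nr4a1 (r = 0.999 each), Nfkbia by Anxa2 and Tigit (r = 0.999 each), and Nfkbiz by Myo1f and Gadd45g (r = 0.999 each). Nfkb2 was followed by Grina (r = 0.996) and Chd7 (r = 0.995). Rel was followed by Adam9 (r = 0.999) and Fcgr2b (r = 0.998), and Nfkbie by Ckb and the macrophage gene C1qc (r = 0.998 each). Such likeness was common: 902 genes had r above 0.95 with Tnfaip3 and 955 with Nfkbia. It was rarer for Bcl3, with 18 such genes, Nfkb1, with 3, and Rela, with 1. Bcl3 was followed by Csrnp2 (r = 0.982) and Gfpt1 (r = 0.973). Relb was followed by Itgb4 (r = 0.988) and Tuft1 (r = 0.986). For Nfkb1, Nploc4 and Slc22a15 were closest (r = 0.952 each), and for Rela, Ubqln4 (r = 0.958) and Sec31a (r = 0.948), the genes with the smallest group differences among subunits in Hepa1-6.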

How the data were processed

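Read counts per gene were deposited as whole numbers beside exon coordinates and merged exon lengths, per the file headers. Tools named in the submitters' processing notes are DESeq2, RSEM, Subread, HISAT2 and featureCounts, and the build is mm10. Versions, roles and strand setting: not given in the sources used here. FPKM values, deposited by the authors for 12930 genes, are proportional to count over length within each library. The counts were tested with edgeR 4.0.16 (R 4.3.3): filterByExpr, TMM scaling and 1 robust quasi-likelihood fit over the 10 libraries with a term per group, tested on simulated data. The simulated data changed few genes, up and down in equal number, so they do not test scaling where as many genes differ as here. Adjusted p-values are Benjamini-Hochberg over 20068 genes with a threshold of 0.05. SE is the log2 fold change over the square root of F. RPKM is TMM-scaled CPM per kilobase. Every pair of replicates differed by more than sampling noise (chi-square per degree of freedom 7.41 to 18.9). The 10 genes and all lists were chosen with earlier results of these data known. The genes named are the 10, the 2 to 4 genes of smallest adjusted p for Hepa1-6 against LN in each pathway list, and the 2 genes of highest correlation with each of the 10. A gene that this rule names is not reported here. Promoters are from RefSeq. Alternatives were RLE, upper-quartile and T cell gene scaling, other filters, DESeq2 1.42.0, limma-voom (limma 3.58.1), fits of only 2 groups, a replicate block, limma on log2 FPKM, and leaving out each library. Counting precision is not limiting for these genes, whose lowest count was 324.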

Additional observations from a re-analysis of the deposited data

Results flagged for a closer look

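Between the tumours, the difference itself passed edgeR's test for 7 of the 10 genes, as log2 differences of the Hepa1-6 and E.G7 effects over the shared LN libraries: Nfkb2 0.58, Relb 0.52, Nfkbia 0.31, Nfkbie 0.40, Nfkbiz 0.63, Tnfaip3 0.35 and Bcl3 1.17. Of all tested genes, 26.1% were called higher in Hepa1-6 than in E.G7 by the same test and 19.6% lower.

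Single libraries stood apart from the other 3 of their group in 3 of the 22 groups of values examined, where chance gives about 1 in 20. Hepa1-6 replicate 2 held 2143 CPM of Nfkbia, above 2075 to 2080 CPM in the other 3. LN replicate 1 held 80.2 CPM of Nfkbie, below the other LN libraries. Hepa1-6 replicate 4 had a log2 ratio of inhibitor to subunit transcripts of 2.5, above 2.31 to 2.34 in the others. It also had the lowest Rela, Nfkb2, Nfkb1, Rel, Nfkbie and Nfkbia levels of its group, though the highest Relb level. Its Nfkbia, at 2075 CPM, was close to 2076 CPM in replicate 3.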

How the results depend on the processing

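All 10 genes were called higher in Hepa1-6 than in LN under every alternative run, except Rela with upper-quartile scaling (0.12, edgeR adjusted p = 0.112). Counts of genes called higher were 9 to 10 for Hepa1-6 against LN, 7 to 9 for E.G7 against LN and 7 to 8 between tumours. The 9 in E.G7 came with T cell gene scaling, where 8306 of 20068 tested genes were called higher, beside 6554 in the main fit. The 9 in Hepa1-6 came with upper-quartile scaling, where 6356 were called higher, beside 7419. For E.G7 against LN, Relb turned with upper-quartile scaling (-0.115), the 10 CPM filter (-0.0797), the replicate block (-0.0148) and limma on FPKM (-0.0207 with a pseudocount of 1, with and without the filter, and -0.0215 with 0.1), and over left-out libraries ran from -0.0403 to 0.0543. Bcl3 turned with the same scaling (-0.0753), filter (-0.0414) and block (-0.103), and ran from -0.0634 to 0.171 over left-out libraries. Rela turned with upper-quartile scaling (-0.00593). Between tumours Rel turned with T cell gene scaling (-0.0381) and with only 2 groups fitted (-0.00685), and Nfkb1 ran from -0.221 to 0.0196 over left-out libraries. Rela passed edgeR's test between tumours with the 10 CPM filter (0.23, adjusted p = 0.025), the block (0.25, adjusted p = 0.0305) and without Hepa1-6 replicate 4 (0.27, adjusted p = 0.00123). For E.G7 against LN, Rela (0.38, adjusted p = 0.0011) and Relb (0.27, adjusted p = 0.00783) passed it with T cell gene scaling. The log2 ratio of inhibitor to subunit transcripts between tumours ran from -0.0273 to 0.0808 over left-out libraries and was -0.0221 with the block. The causes were not tested. Same-numbered libraries did not deviate together (r from -0.05 to 0.03). This check cannot exclude a shared batch, and the deviations of the 2 E.G7 libraries mirror each other by construction. The block moved the calls for Hepa1-6 against LN from 7419 higher and 6237 lower to 7325 and 6065. The median of all genes in Hepa1-6 against LN was 0.04, -0.13 with upper-quartile and 0.20 with T cell gene scaling, and in E.G7 against LN 0.01, -0.07 and 0.29. Higher genes made up 54.3%, 45.0% and 63.8% of calls in the first and 54.6%, 48.3% and 68.9% in the second, and 57.1%, 51.4% and 47.8% between tumours.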
